A study of Mus musculus with 6 samples.

Results

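The genes described here are the Rab GTPases of vesicle traffic, taken by name alone. A symbol was a member if it read Rab, a number and at most a closing letter, and 59 of the 25124 gene symbols in the deposited expression table did so. Of these, 42 reached 1 TPM (reads divided by transcript length and scaled to a fixed total per library) in at least 3 of 6 libraries and were tested. The other 17 did not reach that level, and no test was made of them.

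Rab proteins are small GTPases that mark the membranes of the cell and direct vesicles between them. An exchange factor (GEF) loads a Rab with GTP on its target membrane, the loaded Rab binds effectors such as motors and tethers, and a GTPase-activating protein (GAP) ends the cycle. GDP dissociation inhibitor then lifts the Rab, which carries a lipid tail added by geranylgeranyl transferase, off the membrane. In macrophages this system sorts phagosomes and endosomes towards lysosomes, returns receptors to the surface and carries cytokines outwards.

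RNA was sequenced from RAW264.7, a macrophage-like line of mouse tumour origin. In 3 libraries the cells were labelled as knockout for E4BP4, the basic leucine zipper transcription factor encoded by Nfil3, and in 3 libraries they were labelled control. All cells were untreated and were grown in high-glucose medium with fetal bovine serum, and the libraries were made from poly(A) RNA. The sources used here do not say how the knockout was made, whether either line is 1 clone or whether the replicates were separate cultures. The p-values below therefore measure only the spread between libraries.

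The targeted gene went against its label. Nfil3 had 105, 104 and 99.8 TPM in the libraries labelled knockout, against 29.5, 29.9 and 31.0 TPM in the libraries labelled control. Its RNA level alone does not show whether a working protein was made, and every direction below is by label only. The reads behind the listed genes numbered 18373052 to 19867732 per library under the knockout label and 15615639 to 18110568 under the control label. All 12 macrophage markers listed for the check were above 1 TPM, with a summed level of 4751 to 4924 TPM under the knockout label and 3593 to 3890 TPM under the control label. That gap came from Lyz2, the lysozyme gene: without it the other 11 markers summed to 2584 to 2659 TPM under the knockout label and 2576 to 2731 TPM under the control label. The markers went both ways, with 4 higher, 6 lower (among them Csf1r, the receptor for macrophage growth factor, and Cd68, a lysosomal glycoprotein) and 2 not passed, and their part in the results below was not tested. Of 33 markers of other cell types, 2 were above 1 TPM (S100a8 and Lck, means over all libraries of 5.38 and 3.31 TPM), and 8 were at 0 in every library (among them Cd3g, Krt14, Lum and Mpo).

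Of the 42 tested Rab genes, 8 were higher under the knockout label, 12 were lower, and the remaining 22 did not pass. The test was limma on log2(TPM + 1), two-sided, with Benjamini-Hochberg adjustment over all 11257 genes tested and a threshold of 0.05. The 20 called genes are 47.6% of the tested members, against 50.1% of all tested genes called. Higher calls made up 19.0% of the members, against 26.7% of all genes, and lower calls 28.6%, against 23.4%. A call together with a log2 fold change of at least 0.4 in size was reached by 6 members (14.3%), against 16.7% of all genes. The 2 groups of libraries did not overlap for 27 members (64.3%), against 58.5% of all genes. By the authors' deposited table, with its own adjusted p, 6 members were higher and 13 lower, against 23.3% and 22.7% of all genes, or 45.9% in either direction. The median log2 fold change of the members was -0.01, and that of all tested genes was 0.02. By these counts the Rab genes as a family changed about as often as other genes did. In bulk RNA, fewer cells that express a gene and less of its RNA per cell cannot be told apart.

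Summed over the family, Rab transcripts came to 1772, 1784 and 1777 TPM in the libraries labelled knockout, against 1828, 1865 and 1848 TPM in the libraries labelled control. The lower sum under the knockout label did not overlap the control sum. The control order in TPM was led by Rab5c, Rab7, Rab1a, Rab1b, Rab14 and Rab10, and these 6 genes held 41.0% of the summed Rab TPM under the knockout label and 44.0% under the control label. Under the knockout label Rab7 stood first with 169.5 ± 0.882 TPM and Rab5c second with 163 ± 2.19 TPM (SD, n = 3). Under the control label the order was Rab5c with 213 ± 7.06 TPM and then Rab7 with 165 ± 1.56 TPM (SD, n = 3). Rab10 (92.9 ± 0.785 TPM) and Rab1b (91.9 ± 1.79 TPM), neighbours in the order under the knockout label, did not differ beyond their spread. Replicates were close, with a median coefficient of variation of 3.56% under the knockout label and 3.87% under the control label.

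**Figure D1:**
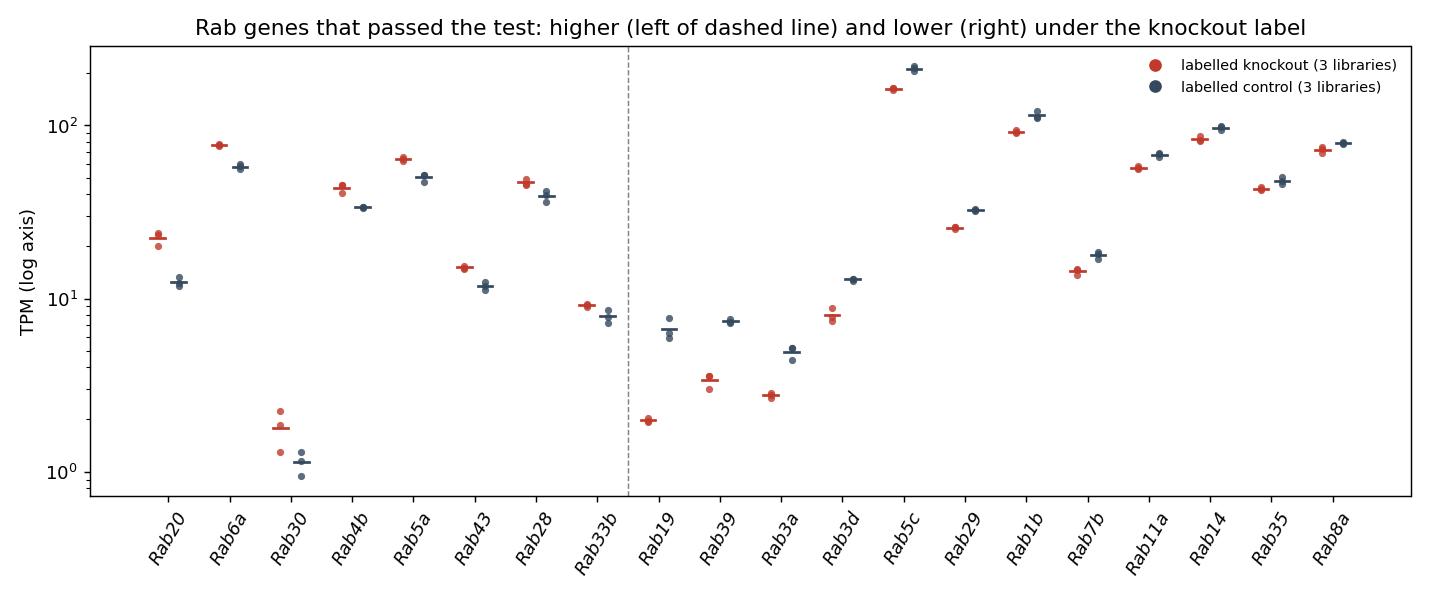
TPM of each called Rab gene in every library, on a log axis, with points under the knockout label left of those under the control label. Short lines are means of 3 libraries, genes called higher stand left of the dashed line and genes called lower right of it, and Rab30 is the called gene whose groups overlap.

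The early endosome Rabs held the highest rise of the family and its most abundant lower gene. Of 7 tested, 2 rose, 1 fell and 4 did not pass (42.9% called, against 50.1% of all genes). Rab20, which acts in the maturation of phagosomes in macrophages, had 23.3, 23.9 and 20.1 TPM in the libraries labelled knockout, against 11.9, 12.3 and 13.3 TPM in the libraries labelled control. All 3 libraries labelled knockout stood well above the control range. The mean was 1.80-fold higher under the knockout label, with a log2 fold change of 0.80 (SE 0.0702, limma adjusted p = 1.51e-05), and 1.85% of tested genes had a higher log2 fold change. The authors' deposited table gives 0.90 for Rab20, taking its comparison as knockout over control. The gene lies at chr8:11453390-11478640 on the minus strand (mm10). Antisense exons, with E230013L22Rik the gene overlapping most, cover 25.6% of the Rab20 exon bases. That antisense gene had 4.44, 4.39 and 4.34 TPM under the knockout label, against 2.47, 2.28 and 1.83 TPM under the control label. The library kit keeps no strand, so reads of the 2 genes cannot be told apart in the shared bases.

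Rab5 proteins drive fusion of early endosomes, and their 3 genes did not move together. Rab5a had 65.6, 62.0 and 64.2 TPM in the libraries labelled knockout, against 47.0, 52.1 and 51.7 TPM in the control libraries. It was 1.27-fold higher under the knockout label, with a log2 fold change of 0.34 (SE 0.0478, limma adjusted p = 0.000286). Rab5c had 164, 164 and 161 TPM under the knockout label, against 219, 214 and 205 TPM under the control label. Its log2 fold change was -0.38 (SE 0.0365, limma adjusted p = 2.52e-05), so that control levels were 1.31 times those under the knockout label. Rab5b had 15.6, 14.3 and 16.3 TPM under the knockout label, against 16.1, 16.4 and 15.5 TPM under the control label, overlapped between the groups and did not pass (limma adjusted p = 0.434). The sum of the 3 genes was lower under the knockout label, at 242 ± 2.87 TPM, against 279 ± 5.64 TPM under the control label (SD, n = 3 each). The other early endosome Rabs, Rab21, Rab22a and Rab31, had log2 fold changes between -0.06 and 0.02 and did not pass.

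The promoter windows of 4 members are shown because 2 of them (Rab20 and Rab19) belong to the genes that differed most in each direction, and 2 (Rab29 and Rab5a) belong to called genes that hold a searched motif. They run from 250 bases before to 50 bases after the RefSeq transcript start (GRCm38.p6), 5′ to 3′ on the gene's strand, at chr8:11478591-11478890 (minus) for Rab20, chr6:39381103-39381402 (plus) for Rab19, chr1:131867027-131867326 (plus) for Rab29 and chr17:53478984-53479283 (plus) for Rab5a. Capitals mark matches to the searched motifs.
Rab20: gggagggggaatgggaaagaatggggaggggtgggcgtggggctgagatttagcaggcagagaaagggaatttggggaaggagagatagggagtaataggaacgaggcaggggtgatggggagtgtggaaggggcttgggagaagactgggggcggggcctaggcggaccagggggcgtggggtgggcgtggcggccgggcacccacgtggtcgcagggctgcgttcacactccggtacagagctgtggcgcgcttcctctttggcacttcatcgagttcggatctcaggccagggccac
Rab19: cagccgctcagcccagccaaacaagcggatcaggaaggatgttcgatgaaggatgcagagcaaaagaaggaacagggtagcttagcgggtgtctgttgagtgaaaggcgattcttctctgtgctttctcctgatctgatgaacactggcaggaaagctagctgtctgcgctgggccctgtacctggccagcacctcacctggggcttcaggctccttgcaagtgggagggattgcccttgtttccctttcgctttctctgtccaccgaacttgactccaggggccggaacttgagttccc
Rab29: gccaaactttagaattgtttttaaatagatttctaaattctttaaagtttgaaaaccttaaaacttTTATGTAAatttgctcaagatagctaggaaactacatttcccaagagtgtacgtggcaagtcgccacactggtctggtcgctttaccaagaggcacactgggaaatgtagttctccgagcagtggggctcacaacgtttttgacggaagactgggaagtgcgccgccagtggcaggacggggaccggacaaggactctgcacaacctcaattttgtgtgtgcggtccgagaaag
Rab5a: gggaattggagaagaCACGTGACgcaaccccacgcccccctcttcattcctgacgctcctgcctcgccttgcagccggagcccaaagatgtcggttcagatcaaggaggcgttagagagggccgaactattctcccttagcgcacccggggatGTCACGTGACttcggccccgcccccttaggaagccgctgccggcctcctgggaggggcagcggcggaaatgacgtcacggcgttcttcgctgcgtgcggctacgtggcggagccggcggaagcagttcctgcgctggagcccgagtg
Such a window was found for 48 of the 59 Rab genes. The D-box, the element that E4BP4 binds, was searched as TTATGTAA or TTACGTAA on both strands. It was present in 1 of 48 Rab windows, that of Rab29 at 184 bases before the start, and in 1.06% of all 32851 windows. The lysosomal gene element searched as GTCACGTG, also on both strands, was present in 3 of 48 Rab windows (Rab5a, Rab21 and Rab24) and in 2.25% of all windows. Its letters overlap themselves on the opposite strand, which gives Rab5a a pair of overlapping matches. The amino acid response element searched as TGATGCAA was present in 0 Rab windows and in 0.895% of all windows. A match is only a run of letters, and its absence says only that those letters are not in the window. The Rab counts took 1 window per gene, while all windows can include several of 1 gene. The median share of G and C bases was 61.6% in the Rab windows and 52.7% in all windows, and its part in these counts was not tested.

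Of the recycling Rabs, which bring internalized receptors back to the surface, 7 of 10 were tested, with 1 higher, 3 lower and 3 not passed. The calls are 57.1% of the tested genes, against 50.1% of all genes. Rab4b, a fast-recycling Rab, had 45.2, 45.0 and 40.5 TPM in the libraries labelled knockout, against 33.7, 33.5 and 33.9 TPM in the control libraries. Its log2 fold change was 0.36 (SE 0.0488, limma adjusted p = 0.000236). Rab4b lies on chromosome 7, where the median log2 fold change of all genes was 0.24, and with the chromosome medians removed it was at 0.12 and did not pass (limma adjusted p = 0.0786). Same-strand exons, with the readthrough gene Gm21983 overlapping most, cover 85.2% of the Rab4b exon bases. Rab11a, which runs the slower perinuclear recycling route, had 56.0, 58.3 and 56.7 TPM under the knockout label, against 65.3, 68.8 and 69.0 TPM under the control label. It was lower under the knockout label in all 3 libraries, with a log2 fold change of -0.24 (SE 0.0389, limma adjusted p = 0.000648). Rab14, which links the Golgi and recycling endosomes, was also lower, with 82.5, 81.9 and 87.2 TPM under the knockout label, against 94.0, 99.9 and 97.6 TPM under the control label (log2 fold change -0.21, limma adjusted p = 0.00209). Rab35, a further fast-recycling Rab, averaged 43.2 ± 0.978 TPM under the knockout label and 48.0 ± 2.16 TPM under the control label (SD, n = 3 each, limma adjusted p = 0.0188). The Rab35 call did not hold without knockout replicate 1 (limma adjusted p = 0.0632), without knockout replicate 3 (0.0620) or without control replicate 2 (0.0617). Rab4a, the close paralog of Rab4b, had 6.34, 6.78 and 6.35 TPM under the knockout label, against 7.11, 8.38 and 7.21 TPM under the control label, and lay at the threshold without passing. Rab12, which acts in transferrin receptor traffic, did not pass at a log2 fold change of 0.04. Rab11b had 8.86, 7.99 and 8.01 TPM under the knockout label, against 7.34, 7.53 and 7.97 TPM under the control label, and did not pass (limma adjusted p = 0.183).

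Of the late endosome and lysosome Rabs, 4 of 6 were tested, and 1 passed (25% called, against 50.1% of all genes). Rab7, the Rab that drives fusion with lysosomes, had 169, 169 and 170.5 TPM in the libraries labelled knockout, against 166, 165 and 163 TPM in the control libraries. The groups did not overlap, yet the log2 fold change was 0.04 (SE 0.0316) and did not pass (limma adjusted p = 0.322). Rab7b, a late endosomal Rab studied in macrophages for its part in Toll-like receptor traffic, had 14.8, 13.7 and 14.7 TPM under the knockout label, against 18.5, 18.2 and 16.9 TPM under the control label. Every library labelled knockout was below every control library, and the log2 fold change was -0.29 (SE 0.0540, limma adjusted p = 0.00158). Rab9, which returns receptors from late endosomes to the Golgi, averaged 31.6 ± 0.934 TPM under the knockout label and 29.1 ± 0.981 TPM under the control label (SD, n = 3 each) and just missed the threshold (limma adjusted p = 0.0536). Rab34, known for lysosome positioning, did not pass at a log2 fold change of 0.01.

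The Rabs of lysosome-related organelles had 2 tested genes of 3. Rab29, which recruits the kinase LRRK2 to membranes, had 26.0, 26.0 and 25.1 TPM in the libraries labelled knockout, against 32.1, 32.6 and 32.7 TPM in the control libraries. Its log2 fold change was -0.33 (SE 0.0396, limma adjusted p = 0.000119), with tight and separate groups. Its neighbour in function Rab32, which serves melanosomes and similar organelles, averaged 17.5 ± 1.06 TPM under the knockout label and 17.1 ± 1.43 TPM under the control label (SD, n = 3 each) and did not pass (limma adjusted p = 0.691). Rab38, its close paralog, did not reach the level for testing.

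Of the Rabs of the endoplasmic reticulum and Golgi, 11 of 14 were tested, with 4 higher, 3 lower and 4 not passed. The calls are 63.6% of these genes, against 50.1% of all genes, of which 26.7% higher and 23.4% lower. Rab19, a Golgi-associated Rab that is little studied, differed most of all members. It had 1.96, 2.05 and 1.94 TPM in the libraries labelled knockout, against 7.68, 6.31 and 5.92 TPM in the control libraries. The control mean was 3.34 times the mean under the knockout label, from a mean of 44.7 reads under the knockout label and 137 under the control label. Its log2 fold change was -1.35 (SE 0.0930, limma adjusted p = 3.34e-06), and 0.506% of tested genes had a lower one. The authors' deposited table gives -1.71 for Rab19.

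Rab39 was counted with this role, although it is also linked to the acidification of phagosomes in human macrophages. The counts per role depend on such placements. Rab39 had 3.02, 3.55 and 3.58 TPM in the libraries labelled knockout, against 7.28, 7.63 and 7.20 TPM in the control libraries. The groups stood far apart, with control levels 2.18 times those under the knockout label and a log2 fold change of -0.94 (SE 0.0739, limma adjusted p = 7.84e-06). With a pseudocount of 5 in place of 1, the log2 fold changes of these low genes shrank to -0.73 for Rab19 and -0.56 for Rab39, and both calls held. Rab1b, which together with Rab1a carries traffic into the Golgi, had 93.7, 90.1 and 92.0 TPM under the knockout label, against 120.5, 111 and 112 TPM under the control label. It was lower in all 3 libraries labelled knockout, with a log2 fold change of -0.31 (SE 0.0415, limma adjusted p = 0.000209). Rab1a had 127, 131 and 128 TPM under the knockout label, against 132, 131 and 133 TPM under the control label, and missed the threshold at a log2 fold change of -0.04 (limma adjusted p = 0.307).

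The 4 higher genes of the Golgi group were Rab6a, Rab43, Rab33b and Rab30. Rab6a, a Rab of transport within and out of the Golgi, had 75.9, 76.7 and 78.2 TPM in the libraries labelled knockout, against 56.0, 59.5 and 58.1 TPM in the control libraries. It was 1.33-fold higher under the knockout label, with a log2 fold change of 0.41 (SE 0.0380, limma adjusted p = 2.21e-05). Rab6a also lies on chromosome 7, and with the chromosome medians removed its log2 fold change was 0.16, still past the threshold (limma adjusted p = 0.00424). Antisense exons cover 22.0% of the Rab6a exon bases. The gene overlapping most was Mrpl48, which had 12.7, 12.8 and 11.96 TPM under the knockout label and 8.62, 9.77 and 9.65 TPM under the control label. Rab43, known in mouse dendritic cells for cross-presentation, averaged 15.1 ± 0.343 TPM under the knockout label and 11.9 ± 0.676 TPM under the control label (SD, n = 3 each, limma adjusted p = 0.000838). Same-strand exons, with Gm45140 the gene overlapping most, cover 90.4% of the Rab43 exon bases.

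Rab33b, which binds the autophagy protein Atg16L1, had 9.18, 8.98 and 9.33 TPM in the libraries labelled knockout, against 7.25, 7.86 and 8.64 TPM in the control libraries. Its log2 fold change was 0.19 (SE 0.0669, limma adjusted p = 0.0378), and the control libraries were more scattered than the others. This call did not hold without knockout replicate 1, 2 or 3 (limma adjusted p = 0.0929, 0.0671 and 0.0992) or without control replicate 1 or 2 (0.104 and 0.0774). Antisense exons cover 17.6% of the Rab33b exon bases. Rab30, also of the Golgi, had 2.23, 1.30 and 1.85 TPM under the knockout label, against 1.16, 1.31 and 0.944 TPM under the control label, so the groups overlapped. Rab30 also lies on chromosome 7, and with the chromosome medians removed it did not pass (log2 fold change 0.13, limma adjusted p = 0.441). Its log2 fold change of 0.38 (SE 0.138, limma adjusted p = 0.0445) rested on a mean of 55.3 reads under the knockout label and 32.3 under the control label. The Rab30 call did not hold without knockout replicate 1 (limma adjusted p = 0.161) or 3 (0.110), or without control replicate 1 (0.0796) or 3 (0.129). Rab2a, Rab2b, and Rab18 did not pass, with log2 fold changes between -0.07 and 0.13, and antisense exons cover 77.6% of the Rab2b exon bases.

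Of the Rabs of regulated secretion and transport to the surface, 7 of 12 were tested, with 3 lower and 4 not passed. The calls are 42.9% of the tested genes, against 50.1% of all genes, of which 26.7% higher and 23.4% lower. Rab3 proteins dock secretory granules. Rab3a had 2.65, 2.76 and 2.85 TPM in the libraries labelled knockout, against 5.19, 5.16 and 4.44 TPM in the control libraries. Rab3d, the form found in granules of non-neuronal cells, had 7.81, 7.44 and 8.83 TPM under the knockout label, against 13.01, 12.9 and 12.7 TPM under the control label. In every library labelled knockout both Rab3 genes were below the control range, with log2 fold changes of -0.66 for Rab3a (SE 0.0790, limma adjusted p = 0.000109) and -0.62 for Rab3d (SE 0.0648, limma adjusted p = 4.35e-05). With a pseudocount of 5 the log2 fold change of Rab3a was -0.36, and its call held. Over all alternative settings the Rab3a value ran from -0.86 to -0.28. Rab8a, which acts in transport to the surface, averaged 72.4 ± 2.67 TPM under the knockout label and 79.3 ± 0.655 TPM under the control label (SD, n = 3 each, limma adjusted p = 0.0190). The Rab8a call did not hold without knockout replicate 1 (limma adjusted p = 0.0521) or 3 (0.0720). Rab27a, the Rab of lytic granules and exosomes, averaged 11.02 ± 0.283 TPM under the knockout label and 10.8 ± 0.607 TPM under the control label (SD, n = 3 each) and did not pass (limma adjusted p = 0.735). Rab10, which moves vesicles to the surface, had 92.5, 93.8 and 92.4 TPM under the knockout label, against 88.1, 94.0 and 94.1 TPM under the control label, and did not pass (limma adjusted p = 0.800). Rab13 and Rab8b did not pass either, with log2 fold changes of -0.11 and -0.09.

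Of 4 tested Rabs with other roles, 1 passed (25% called, against 50.1% of all genes). Rab28, known from photoreceptors and cilia, had 45.5, 49.0 and 46.2 TPM in the libraries labelled knockout, against 36.2, 41.8 and 39.5 TPM in the control libraries, and was higher (log2 fold change 0.26, SE 0.0561, limma adjusted p = 0.00398). Rab24, an atypical Rab of the autophagy pathway, averaged 34.2 ± 2.36 TPM under the knockout label and 35.7 ± 1.65 TPM under the control label (SD, n = 3 each) and did not pass (limma adjusted p = 0.374). Antisense exons cover 66.4% of the Rab24 exon bases, so its level is uncertain. The gene overlapping most was the more abundant Prelid1 (186 TPM under the knockout label and 196 TPM under the control label). Rab23, a ciliary Rab of hedgehog signalling, and Rab40c, which is tied to a ubiquitin ligase, also did not pass, at log2 fold changes of 0.06 and -0.02.

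**Figure D2:**
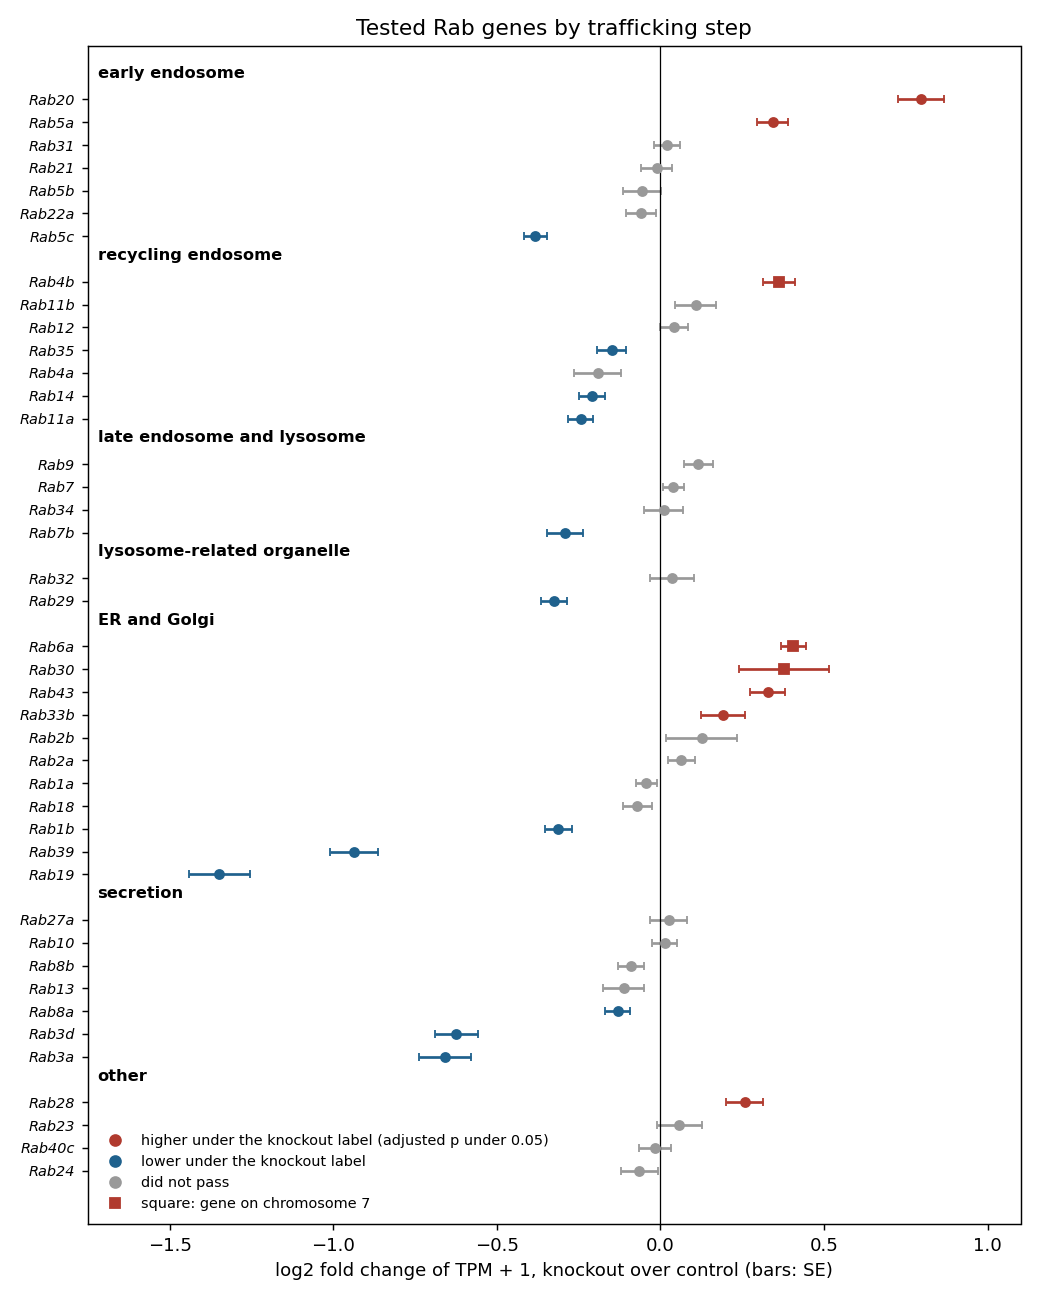
Log2 fold change (label knockout over control) of every tested Rab gene on the log2(TPM + 1) scale, grouped by role, with bars for the standard error from limma and squares for genes on chromosome 7. Rab20 at 0.80 and Rab19 at -1.35 are the ends of the range, and the 22 genes that did not pass lie between -0.19 and 0.13.

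The untested members had little or no RNA here. Rab17 and Rab37 had no read in any library. Rab42 lay just outside the filter, with 1.06, 0.407 and 0.756 TPM under the knockout label, against 0.521, 0.812 and 0.620 TPM under the control label, and Rab30 lay just inside it. None of the other untested members exceeded 0.425 TPM in any library, the value of Rab15 in 1 library labelled knockout. They include Rab3b, Rab3c and Rab27b, which serve neurons and secretory cells, and Rab6b and Rab39b, known mainly from the brain.

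Rab genes that share a number differ by letter, and the shares of some of these paralogs differed between the labels. Among Rab5 transcripts, Rab5a made up 26.7%, 25.8% and 26.6% in the libraries labelled knockout, against 16.6%, 18.5% and 19.0% in the control libraries, while Rab5c made up 67.3 ± 0.870% under the knockout label and 76.2 ± 1.23% under the control label (SD, n = 3 each). Among Rab1 transcripts, Rab1a made up 58.2 ± 0.859% under the knockout label and 53.6 ± 1.21% under the control label (SD, n = 3 each). For Rab4 transcripts the Rab4b share was 87.0 ± 0.634% under the knockout label and 81.7 ± 1.47% under the control label (SD, n = 3 each). These shares did not overlap between the labels. Nor did the share of Rab11a, at 87.3 ± 0.852% under the knockout label and 89.9 ± 0.248% under the control label (SD, n = 3 each). The Rab7 share did not overlap either, at 92.2 ± 0.275% under the knockout label and 90.2 ± 0.339% under the control label (SD, n = 3 each). For TPM itself, the groups did not overlap for 58.5% of all tested genes. Rab3d held 74.1 ± 1.62% of Rab3 transcripts under the knockout label and 72.3 ± 1.56% under the control label (SD, n = 3 each), with overlapping libraries, while the Rab3 sum was 10.8 ± 0.771 TPM under the knockout label and 17.8 ± 0.608 TPM under the control label. The shares of Rab8a and Rab8b also overlapped. Rab4b lies on chromosome 7, where the median log2 fold change of all genes was 0.24, and the shares were not adjusted for chromosome. Whether the Rab4b share moved apart from that shift was not tested. The sources used here do not say how reads that map to several paralogs were assigned, which makes the shares less certain than the sums.

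**Figure D3:**
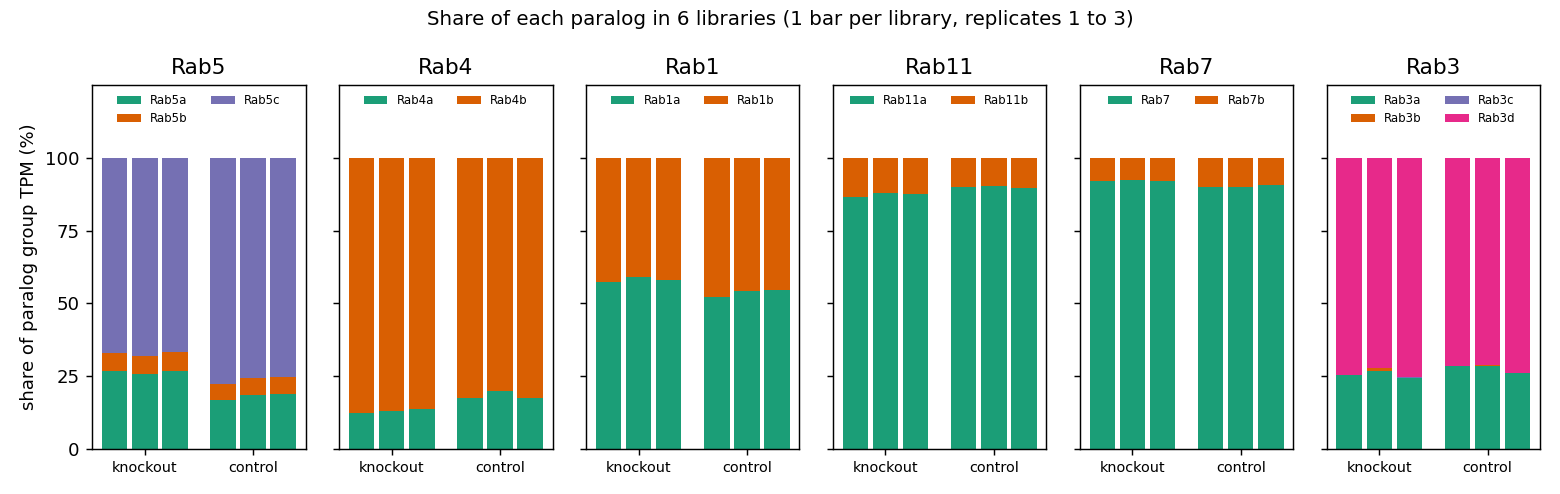
Share (percent) of each paralog in the summed TPM of its Rab group, per library, with libraries labelled knockout left of control libraries. Rab5a takes a larger share and Rab5c a smaller one under the knockout label, while the Rab3a and Rab3d shares overlap.

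Chromosome position moved with some of these results. The 878 tested genes of chromosome 7 had a median log2 fold change of 0.24, with 59.2% higher and 8.31% lower, while the medians of the other chromosomes lay between -0.05 and 0.06. All 3 tested Rab genes on chromosome 7 (Rab4b, Rab6a and Rab30) were higher in the libraries labelled knockout. After the median of each chromosome was subtracted, Rab6a passed, and Rab4b and Rab30 did not. Outside chromosome 7, the calls were also lost by Rab35 on chromosome 5 at -0.09 (limma adjusted p = 0.112) and Rab8a on chromosome 8 at -0.11 (0.0553). Rab18 and Rab9 passed with the chromosome medians removed, at -0.14 (0.0186) and 0.13 (0.0380). In all, 7 Rab genes were then higher, against 24.3% of all genes, and 11 were lower, against 24.8%. What makes chromosome 7 stand apart was not tested.

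Outside chromosome 7, 5 of 39 Rab genes were higher (12.8%, against 23.9% of all genes there) and 12 were lower (30.8%, against 24.7%). Genes within 5 Mb of Rab20 had a median log2 fold change of 0.00 over 34 genes, and those near Rab19 had a median of -0.00 over 40 genes. Both genes thus stood apart from their neighbours. Rab29 and Rab7b, both lower, lie near each other on chromosome 1, where the neighbours of Rab29 had a median of -0.03. Rab23, on the same chromosome, had 40 neighbours with a median of 0.27, of which 28 were higher, while Rab23 itself was at 0.06 and did not pass.

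**Figure D4:**
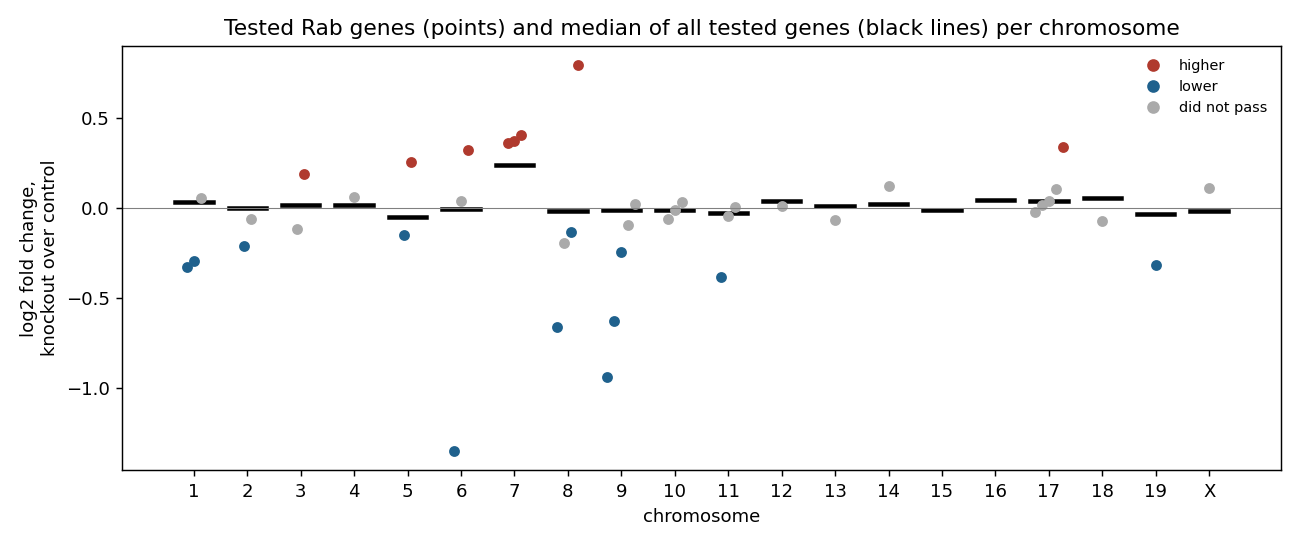
Log2 fold change (label knockout over control) of the tested Rab genes by chromosome, with the median of all tested genes on each chromosome as a line. The chromosome 7 median stands at 0.24, and its 3 Rab genes lie above 0.

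The proteins that load, unload and read Rabs were examined in 8 lists with 199 genes, of which 179 were tested. Among these, 56 were higher under the knockout label, 21 were lower, and 102 did not pass, with 26.7% of all genes higher and 23.4% lower. The calls are 43.0% of the tested list genes, against 50.1% of all genes, and the median log2 fold change was 0.06, against 0.02 for all genes. The lower count was the less stable one, at 13 without knockout replicate 1, at most 25 with any 1 library left out, and 15 to 31 over the other alternatives. On chromosome 7, 8 of 12 were higher (66.7%, near the 59.2% of all genes there) and the others did not pass. Elsewhere 48 of 167 were higher (28.7%, against 23.9% of all genes) and 21 were lower (12.6%, against 24.7%).

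Of 45 tested exchange factors, 11 were higher and 10 were lower (46.7% called, against 50.1% of all genes), with a median of 0.03. Als2cl, a relative of the Rab5 exchange factor alsin, had the largest rise of the lists, at 6.31 ± 0.337 TPM under the knockout label and 1.39 ± 0.171 TPM under the control label (SD, n = 3 each, 4.54-fold, limma adjusted p = 5.28e-07). Dennd2d, an exchange factor for Rab9, was 2.07-fold higher, at 9.26 ± 0.467 TPM under the knockout label and 4.47 ± 0.0987 TPM under the control label (SD, n = 3 each). Sbf2, a DENN-domain protein encoded on chromosome 7, was also higher, averaging 36.6 TPM under the knockout label and 23.0 TPM under the control label. The lower genes include Trappc1, a core subunit of the Rab1 exchange factor TRAPP, at 67.3 ± 1.40 TPM under the knockout label and 101 ± 5.05 TPM under the control label (SD, n = 3 each, log2 fold change -0.58), Rab3il1, an exchange factor for Rab8 (26.4 TPM under the knockout label and 38.2 TPM under the control label), and Dennd2c (3.81 TPM under the knockout label and 5.65 TPM under the control label).

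Of 36 tested GAPs, 12 were higher and 3 were lower, against 26.7% higher and 23.4% lower among all genes, with a median of 0.10. Tbc1d31 had a log2 fold change of 0.56 and was higher. Tbc1d15, a GAP for Rab7, was 1.40-fold higher, at 41.4 ± 0.292 TPM under the knockout label and 29.6 ± 1.83 TPM under the control label (SD, n = 3 each). Tbc1d17, encoded on chromosome 7, was higher as well, with a log2 fold change of 0.47. The 3 lower GAPs, Tbc1d14, Tbc1d1 and Rab3gap2, had log2 fold changes of -0.19, -0.18 and -0.16.

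Of 14 genes for prenylation and membrane release, 4 were higher and 2 were lower (42.9% called, against 50.1% of all genes), with a median of 0.05. Chml, an escort protein that presents new Rabs to geranylgeranyl transferase, had 3.73, 3.93 and 4.09 TPM in the libraries labelled knockout, against 7.19, 7.10 and 7.01 TPM in the control libraries, and was lower (log2 fold change -0.72, limma adjusted p = 1.40e-05). Chm, the other escort protein, was higher (log2 fold change 0.18, limma adjusted p = 0.0454), close to the threshold and with overlapping groups. Rabggta, the alpha subunit of that transferase, was higher (log2 fold change 0.36, limma adjusted p = 0.00466), and its beta subunit Rabggtb did not pass (-0.02). The dissociation inhibitor Gdi2, at 224 ± 3.12 TPM under the knockout label and 218 ± 11.9 TPM under the control label (SD, n = 3 each), did not pass. Rabac1, a Rab acceptor encoded on chromosome 7, and Yipf4 were higher, at log2 fold changes of 0.35 and 0.33.

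Of 24 tested endosomal effectors, 8 were higher and 3 were lower (45.8% called, against 50.1% of all genes), with a median of 0.05. Eea1, the Rab5 tether of early endosomes, averaged 43.5 ± 0.606 TPM under the knockout label and 32.0 ± 3.20 TPM under the control label (SD, n = 3 each), a log2 fold change of 0.44 (limma adjusted p = 0.000439). Micall2, an effector of Rab13 and Rab8, was lower, at 8.68 ± 0.250 TPM under the knockout label and 15.8 ± 0.977 TPM under the control label (SD, n = 3 each, log2 fold change -0.79). Ocrl, a phosphoinositide phosphatase, was higher at 0.43, and the Rab11 partner Rab11fip5 was lower at -0.42. Of 23 genes of late endosomes and the HOPS tether, 8 were higher and 1 was lower (39.1% called, against 50.1% of all genes, of which 26.7% higher and 23.4% lower), with a median of 0.10. Vps39, a HOPS subunit that binds Rab7, had 28.4, 29.1 and 29.3 TPM under the knockout label, against 17.1, 17.2 and 16.4 TPM under the control label, and was 1.71-fold higher (limma adjusted p = 1.10e-06). Rilp, the Rab7 effector that recruits dynein, was the lower gene, at 1.29 TPM under the knockout label and 2.32 TPM under the control label, and is named because it is the only one.

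Of 21 tested Golgi effectors and tethers, 5 were higher and 1 was lower (Gorasp1, log2 fold change -0.19), 28.6% called against 50.1% of all genes, with a median of 0.05. The highest of them, the tether subunit Cog7, lies on chromosome 7 and was 1.56-fold higher, and Cog5 and Golga5 were higher at log2 fold changes of 0.24 and 0.23. Of 23 effectors of secretion, 11 were tested, with 6 higher and 1 lower (63.6% called, against 50.1% of all genes, of which 26.7% higher and 23.4% lower) and a median of 0.19. The exocyst subunit Exoc6 was higher at a log2 fold change of 0.40, and Exoc8 was lower at -0.18. Of 5 genes in the list of LRRK kinases and Rab phosphatases, which also holds Vps13c, 2 were higher and 3 did not pass. The calls are 40% of the list, against 50.1% of all genes, and the median was 0.16. The higher genes were Lrrk2, the kinase that Rab29 recruits, at a log2 fold change of 0.19 (limma adjusted p = 0.0401), and the phosphatase Ppm1j at 0.21.

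**Figure D5:**
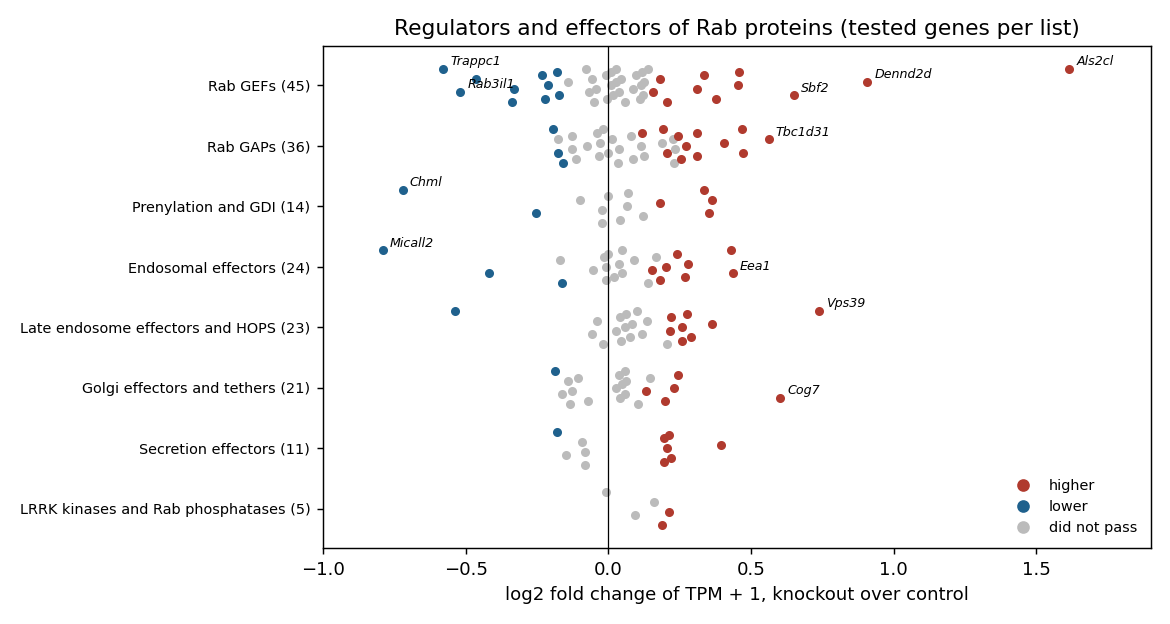
Log2 fold change (label knockout over control) of the tested genes in each of the 8 lists of Rab regulators and effectors, 1 point a gene, with called genes coloured by direction. Als2cl stands farthest right at 1.61, and Micall2 farthest left at -0.79.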

How the data were processed

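The authors deposited TPM values per gene for 3 libraries labelled knockout and 3 labelled control, and a table of their own log2 fold changes, p-values and stabilized log2 values per the file headers. Per the submitters' processing notes, HOMER 4.11.1, STAR 2.7.5a, DESeq2, bcl2fastq and the build mm10 are named, without role or order. The library kit in the labels keeps no strand, and the sources used here do not say how reads shared by paralogs were counted. The listed genes sum to 551257 to 556083 TPM per library.

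TPM was log2-transformed with a pseudocount of 1. Genes with at least 1 TPM in at least 3 libraries were tested with limma 3.58.1 (R 4.3.3; trended variance, two-sided, Benjamini-Hochberg adjustment over all 11257 genes), and the code was tested on simulated data. A fold change on the log2(TPM + 1) scale understates the change of low genes. TPM multiplied by transcript length gave whole reads within 0.1 for 100% of the values checked, and a voom fit on these reads was an alternative. Other alternatives were a pseudocount of 0.1 or 5, other filters and scalings, removal of chromosome medians, the authors' values, a replicate block, and leaving out each library. No pair of replicates was within sampling noise. Values per library are given for called members whose log2 fold change was 0.4 or more in size, the 6 most abundant and their paralogs, and for some others. Of each list, up to 3 called genes in each direction with a mean of at least 5 TPM could be named. Chm, Gdi2, Rabggtb and Rilp were named after their values were seen. The members and lists were chosen with earlier results of these data known. Promoter windows are from RefSeq (GRCm38.p6) and exon overlaps from GENCODE M21. An overlap counts the exon bases of the matched GENCODE transcript shared with any other gene on the stated strand. Where a gene is named, it is the one overlapping most. The matched transcript can differ in length from the counted one (for Rab24, 1168 against 1855 bases).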

Additional observations from a re-analysis of the deposited data

How the results depend on the processing

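Over 17 alternatives, 15 of the 20 called Rab genes were called in every alternative that tested them, 5 lost the call in at least 1 (Rab30, Rab33b, Rab35, Rab8a and Rab4b), and 4 that had not passed did so in at least 1 (Rab4a, Rab8b, Rab9 and Rab18). The call was lost in 10 of 16 alternatives for Rab30, and of 17 in 8 for Rab33b, 4 for Rab35, 3 for Rab8a and 1 for Rab4b. Rab30 and Rab33b also did not pass by the authors' deposited adjusted p. No called Rab gene changed direction, while 7 Rab genes that had not passed changed sign around 0 between alternatives. Leaving out each library in turn gave 6 to 7 Rab genes higher and 10 to 14 lower, 41 to 60 regulators and effectors higher and 13 to 25 lower, the lowest of these without knockout replicate 1. The other alternatives gave 6 to 8 Rab genes higher and 11 to 14 lower, and 46 to 64 regulators and effectors higher and 15 to 31 lower.

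Samples with the same replicate number did not deviate together (correlations of deviations -0.01, -0.06 and 0.00). Such values cannot show whether they were prepared together, and the sources used here do not say. With a replicate block, 6 Rab genes were higher and 12 lower, Rab30 (limma adjusted p = 0.0506) and Rab33b (0.0507) did not pass, and 50 regulators and effectors were higher and 18 lower. Genes under about 3 TPM, such as Rab30, rest on few reads, which limits their precision.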
